A study of Mus musculus with 41 samples.

Results

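Sites of the Flag-tagged LSD1 isoform LSD1c that lie far from the neuronal isoform LSD1n were selected on the positions of called peaks in mouse cortical neurons. A site counted as far when it stood in the Flag-LSD1c list made after 1 h of KCl, lay on chromosomes 1 to 19, and had no Flag-LSD1n site of either time within 1 kb. Of 5437 autosomal LSD1c sites (5480 in the whole list), 2629 (48.4%) met this rule. The other 2808, with an LSD1n site within 1 kb, are called near sites here. These positions come from 1 library per isoform and time, so the distance to LSD1n is how the sites were chosen and not a result. A site far from LSD1n is one with no called LSD1n peak nearby, and weaker LSD1n signal below the calling threshold cannot be seen in a list of peaks.

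All cultures were primary cortical neurons from mouse at 10 days in vitro (DIV10), kept in a bath of 55 mM KCl for 1 h or 0 h. KCl depolarizes neurons. Flag-LSD1c sites came from neurons labelled R26/LSD1c and Flag-LSD1n sites from neurons labelled R26/LSD1n, both precipitated with the anti-Flag antibody M2. R26 is named by the labels alone, which do not say what drives the tagged proteins or whether untagged LSD1 is also present. Histone H3 methylated at lysine 4 once (H3K4me1) or at lysine 36 (H3K36me3), histone H4 methylated at lysine 20 (H4K20me1), and RNA polymerase II (Pol II) were mapped in LSD1n KO and LSD1n WT neurons at 1 h and 0 h. H3K4me2 was mapped in LSD1n WT neurons at 1 h and 0 h. An antibody against LSD1 itself was used in LSD1n KO neurons with no KCl time in the labels, in LSD1n WT neurons at 0 h, and in neurons labelled wild type at 1 h and 0 h. Each group held 1 library, except H4K20me1 in WT at 1 h with 2, and differences between groups have no test. Ranges in brackets are 95% intervals from exact Clopper-Pearson limits and cover counting error only. Sites are not replicates of a condition.

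LSD1 is a demethylase that removes methyl groups from mono- and dimethylated lysine 4 of histone H3, and it works in complexes that repress or activate genes. LSD1n is a splice form found in neurons, with a short extra exon, and has been linked to demethylation of H4K20. H3K4me2 marks promoters and enhancers, H3K4me1 marks enhancers and the flanks of promoters, H3K36me3 and H4K20me1 lie over the bodies of transcribed genes, and Pol II transcribes them.

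Total tags per library ran from 6990017 to 34859557 over the 27 deposited lists, which held 488881 peaks in all. The Flag-LSD1c library at 1 h had 19610076 tags, with 0.431% of them in its sites. The Flag-LSD1n libraries had 26208203 tags at 1 h and 31804648 at 0 h and gave 4438 and 940 sites. The LSD1c and LSD1n samples differ in the prefix of their titles, and isoform cannot be told apart from prefix. In each of the 4 Pol II lists the name inside the file states the other genotype than the sample label does. Groups follow the labels, and the genotype of each Pol II value is therefore uncertain. Regions of the genome where peaks of all 8 targets overlap numbered 434 (2.98 Mb). They held 9 far sites (0.342%, 0.157 to 0.649) and 399 near sites (14.2%, 12.9 to 15.6). An LSD1n peak is part of that definition. With LSD1n left out of it, regions called with the other 7 targets held 286 far sites (10.9%, 9.71 to 12.1) and 417 near sites (14.9%, 13.6 to 16.2).

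Most far sites were well separated from LSD1n. The gap to the nearest LSD1n site had a median of 83.1 kb, with quartiles of 34.8 and 208 kb, and ran from 1008 bp to 4389 kb. Only 16 far sites lay between 1 and 1.5 kb from LSD1n, against 140 near sites between 0.5 and 1 kb, so few sites sat close to the limit. Just inside the rule were sites on chromosome 10 (82323138 to 82323338) and on chromosome 12 (92828772 to 92828972 and 79327043 to 79327243), with gaps of 1008, 1011 and 1028 bp. Just outside it, with gaps of 998, 997 and 979 bp, were 7674904 to 7675104 of chromosome 10, 38053759 to 38053959 of chromosome 1 and 138749414 to 138749614 of chromosome 4. All positions are on build mm9. The share of far sites by autosome ran from 37.4% (30.0 to 45.3) on chromosome 18 to 58.5% (51.3 to 65.4) on chromosome 13. By the same distance 10 of 33 LSD1c sites on X and 3 of 10 on Y lay far from LSD1n; these were not members. Far sites were themselves a little more spread out. The nearest other LSD1c site was within 10 kb of 14.4% of far sites and 18.2% of near sites, and the median gap was 64.9 kb at far sites and 55.8 kb at near sites.

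Far sites stood later in the LSD1c list. The deposited lists give no height for any peak, and the order of entries was taken as a rank. On that scale far sites had a median place at 55.7% of the list and near sites at 44.8%, with 43.8% of far sites and 55.6% of near sites in the first 50% of entries. With the list cut into 10 equal parts, far sites made up 33.0% (29.0 to 37.2) of the first part. Their share was 38.1% in part 2 and 44.2% in part 3, and it was highest in part 8, at 57.1% (52.9 to 61.3). It was 52.4% (48.1 to 56.7) in the last part. Near sites in the regions called with all 8 targets stood early, at a median place of 26.2% of the list.

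Along the list order of the far sites some readouts changed and others did not. Pol II of the 1 h library labelled WT overlapped 77.7% of far sites in the first of these parts and 52.3% in the last. Flag-LSD1c at 0 h overlapped 23.4% of far sites in the first part and 13.8% in the last. H3K4me1 in WT at 1 h ran the other way, with 17.7% in the first part, 31.7% in part 9 and 27.6% in the last. The LSD1 antibody in LSD1n WT neurons also overlapped later far sites more often, 9.14% in the first part and 19.1% in the last, while that in wild type neurons at 1 h overlapped 45.1% in the first part and 40.6% in the last. H3K4me2 in WT at 1 h had no steady course, with 55.4% of far sites in the first part, 66.9% in part 5 and 59.0% in the last. Near sites did not follow all of these courses. From the first to the last part, the LSD1 antibody in LSD1n WT neurons went from 33.0% to 17.5% of near sites. H3K4me1 in WT at 1 h went from 28.5% to 21.0% and Pol II labelled WT from 68.5% to 62.6%. Flag-LSD1c at 0 h went from 54.9% to 27.2%, the wild type antibody at 1 h from 62.3% to 42.4% and H3K4me2 from 57.7% to 56.0%. Whether rank reflects the strength of LSD1c binding was not tested.

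**Figure D1:**
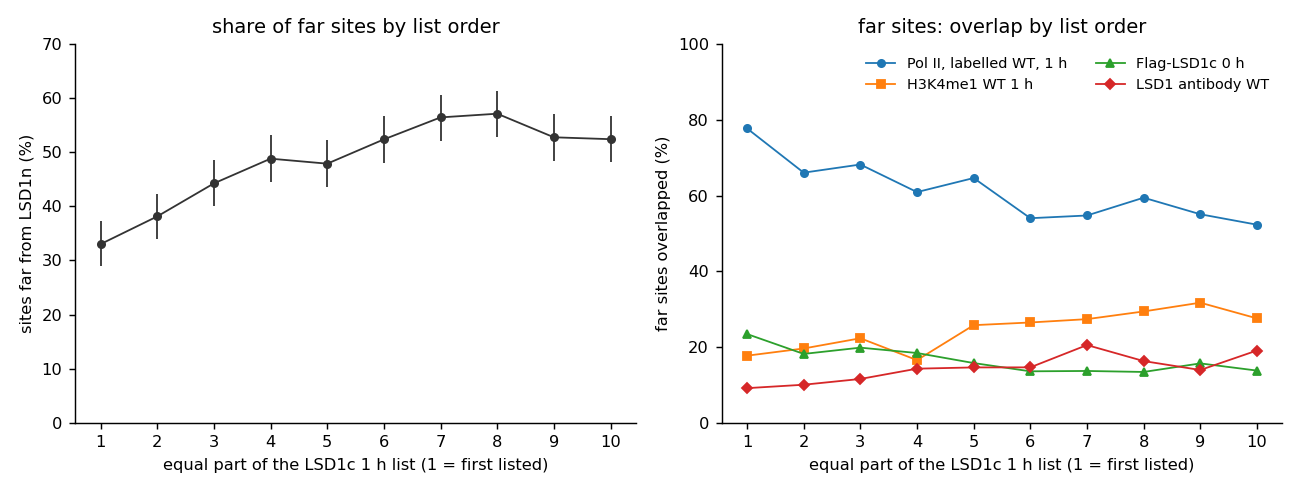
Left, share of LSD1c 1 h sites that lie far from LSD1n (y axis, %) in each of 10 equal parts of the list (x axis), with 95% exact intervals as bars. Right, share of the far sites overlapped by each of 4 lists in the same parts; far sites make up 33.0% of the first part, and Pol II overlaps 77.7% of the far sites there and 52.3% in the last part.

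Far sites lay in chromatin with H3K4 methylation and Pol II nearly as often as near sites, and they overlapped H3K4me1 more often. Within 1 kb, H3K4me2, Pol II and H3K4me1 were all called in WT at 1 h at 1609 far sites, 61.2% (59.3 to 63.1) of them, and at 62.2% (60.4 to 64.0) of near sites. H3K4me2 and Pol II without H3K4me1 made up 478 far sites (18.2%) and 20.7% of near sites. Pol II and H3K4me1 without H3K4me2 made up 163 far sites (6.20%) and 8.23% of near sites. Pol II alone made up 133 far sites (5.06%) and 6.13% of near sites. H3K4me2 with H3K4me1 but no Pol II made up 121 far sites (4.60%). That last class held 35 near sites (1.25%). None of the 3 was called at 54 far sites (2.05%, 1.55 to 2.67) and 24 near sites (0.855%, 0.548 to 1.27). Far sites without Pol II stood later in the list, with medians at 65.4% for H3K4me2 with H3K4me1, 78.1% for H3K4me1 alone (38 sites) and 74.8% for none. The same classes of near sites stood early, at 25.5%, 29.7% (6 sites) and 21.5%. Flag-LSD1c at 0 h was within 1 kb of 32.0% of the far sites with all 3, and of 3.70% of the 54 with none. Among near sites the order was the other way, with 52.1% of those with all 3 and 79.2% of the 24 with none.

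H3K4me2 in WT at 1 h overlapped 1584 far sites, 60.3% (58.4 to 62.1), against 56.6% (54.7 to 58.4) of near sites and 58.4% of all LSD1c sites. The difference of 3.66 percentage points (1.02 to 6.30) shrank to 0.662 (-1.27 to 2.59) when regions within 1 kb were counted, at 85.2% and 84.6%. Over the whole list the order at 0 h was the other way round. H3K4me2 then overlapped 2220 far sites, 84.4% (83.0 to 85.8), against 86.7% (85.4 to 87.9) of near sites and 85.6% of all. This lay in the later sites. In the first 50% of the list the 0 h shares were 88.6% of far and 87.4% of near sites. In the second 50% they were 81.2% of far and 85.9% of near sites. Without the regions called with all 8 targets the 0 h difference was -1.46 points, with an interval that included 0 (-3.45 to 0.538). Without those called with the 7 targets other than LSD1n it was -2.68 points (-4.77 to -0.590). Of the far sites, 1434 had H3K4me2 at both times, 150 at 1 h alone, 786 at 0 h alone and 259 at neither. The 1 h share of far sites was thus 24.2 points below the 0 h share, and that of near sites 30.1 points below. The 1 h library was the shallower, at 6990017 tags against 9418008, and its list had 15208 regions against 16545; the part of depth in this was not tested. H3K4me2 was centred on the sites: it covered 54.4% of far site centres at 1 h, 47.9% of positions 500 bp away and 8.16% of those 2 kb away. The corresponding values around near sites were 51.2%, 44.9% and 5.75%.

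Pol II coverage was highest at the centres of the sites. The peak caller gave all Pol II peaks the same width, so their narrow shape is not a result. The 1 h library labelled KO overlapped 1636 far sites, 62.2% (60.3 to 64.1), against 63.0% of near sites and 62.6% of all, and the library labelled WT 1584 far sites, 60.3% (58.4 to 62.1), against 62.4% of near sites and 61.4% of all. At 0 h the library labelled KO overlapped 58.2% of far sites, against 62.6% of near sites and 60.5% of all. The library labelled WT overlapped 58.0% of far sites at 0 h, against 61.4% of near sites and 59.8% of all. In the first 50% of the list the 1 h difference for the label WT had the other sign, with 66.8% at far and 65.0% at near sites. The near sites were not of one kind: those that overlap an LSD1n site (1604) had Pol II of that library in 69.6%, and those with LSD1n at a gap of up to 1 kb (1204) in 52.9%. The 60.3% of far sites lay between these values. A Pol II peak within 1 kb was less common at far sites in all 4 lists. At 1 h it was present at 92.2% of far sites and 97.2% of near sites for the label KO, and at 90.6% (89.5 to 91.7) and 97.3% (96.6 to 97.8) for the label WT. At 0 h these were 88.8% of far and 96.2% of near sites for the label KO and 87.7% of far and 96.0% of near sites for the label WT. Where a Pol II peak had its centre within 1 kb of a far site, the median distance between centres was 117 bp in the 1 h library labelled KO, 118 bp in the 1 h library labelled WT, 121 bp at 0 h labelled KO and 123 bp at 0 h labelled WT. The values for near sites were 119 to 122 bp.

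Over the whole LSD1c list, H3K4me1 overlapped more far than near sites in all 4 of its lists, and this lay in the later sites. In WT at 1 h it overlapped 658 far sites, 25.03% (23.4 to 26.7), against 19.98% (18.5 to 21.5) of near sites and 22.4% of all. In KO at 1 h it overlapped 738 far sites, 28.1% (26.4 to 29.8), against 22.8% (21.3 to 24.4) of near sites and 25.3% of all. At 0 h the shares were 10.99% of far sites and 8.65% of near sites in KO (9.78% of all), and 15.6% of far sites and 10.7% of near sites in WT (13.1% of all). The difference in WT at 1 h, 5.05 points (2.80 to 7.30), was 7.61 points without the regions called with all 8 targets. Those regions hold an LSD1n and an H3K4me1 peak by definition, so leaving them out can take H3K4me1 from near sites more than from far sites. H3K4me1 then overlapped 655 far sites, against 658, and 419 near sites, against 561. The part of the definition in the wider difference was not tested. Regions called with the 7 targets other than LSD1n also hold an H3K4me1 peak. Without them the difference was 6.88 points (4.55 to 9.22). In the first 50% of the LSD1c list it was 1.10 points. The shares there were 23.2% of far and 23.1% of near sites in KO at 1 h, and at 0 h the order turned, with 8.59% of far and 9.99% of near sites in KO and 11.4% of far and 11.9% of near sites in WT. In the first of the 10 parts WT at 1 h also had the other order, with 17.7% of far and 28.5% of near sites. In the second 50%, WT regions at 1 h overlapped 28.5% (26.2 to 30.9) of far and 20.6% of near sites. Within 1 kb it was 1.55 points (-0.849 to 3.94), with 73.4% of far and 71.9% of near sites. The regions that overlap far sites were also wider. Their median width in WT at 1 h was 1526 bp at far sites and 979 bp at near sites, against 757 bp over the list, and in KO at 1 h it was 1817 bp at far and 1104 bp at near sites. A wider region overlaps a site more easily, and the part of width in the difference was not tested.

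H3K4me1 flanked the sites and did not peak on them. In WT at 1 h it covered 21.3% of far site centres and 33.4% of positions 900 bp away, where coverage was highest. Around near sites it covered 16.2% of centres and 32.0% at its maximum, 1200 bp away. In KO at 1 h the maximum around far sites was 40.4% at 1000 bp, against 23.8% at the centre. At 5 kb the WT 1 h regions still covered 6.62% of positions around far sites and 4.08% around near sites. A region over the site itself was thus more often called at far sites, and the dip at the centre was shallower.

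**Figure D2:**
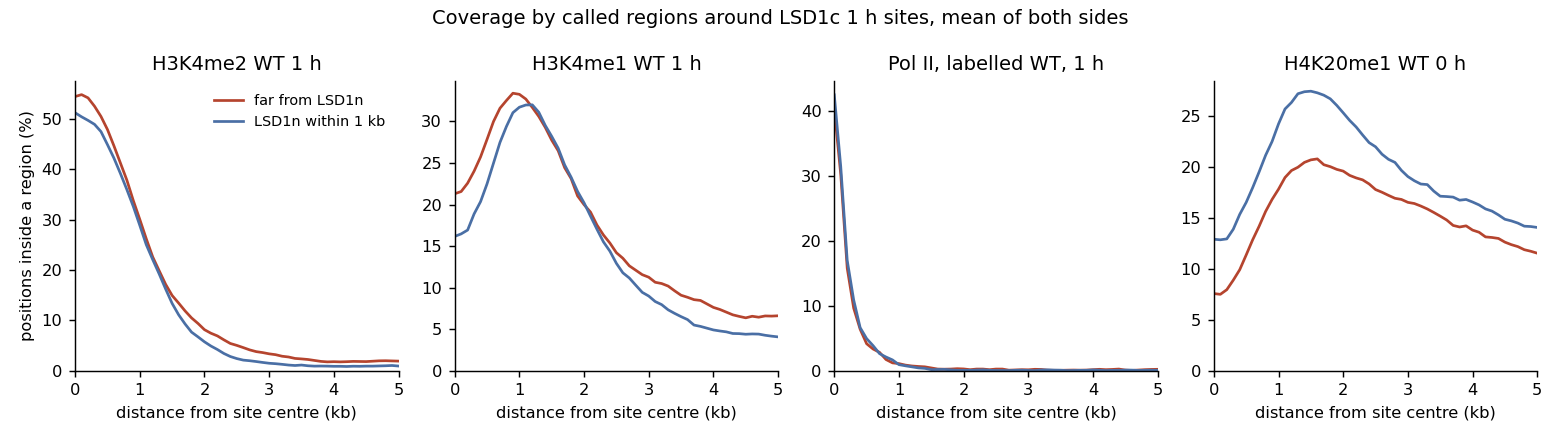
Share of positions inside a called region (y axis, %) by distance from the centre of LSD1c 1 h sites (x axis, kb), for far and near sites. H3K4me2 and Pol II are highest at or next to the centre, H3K4me1 of WT at 1 h is highest 900 bp from far sites (33.4%), and H4K20me1 of WT at 0 h is lower around far sites over the 5 kb shown.

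More far sites were overlapped by H3K4me1 at 1 h than at 0 h in both genotypes. In KO, 540 far sites were overlapped at 1 h alone and 91 at 0 h alone, with 198 at both, a difference of 17.1 points (15.7 to 18.4). In WT, 425 were overlapped at 1 h alone, 178 at 0 h alone and 233 at both, a difference of 9.40 points (7.64 to 11.1). Near sites gave 14.1 points in KO and 9.26 points in WT. Deepest of all was the 1 h library of KO, at 34859557 tags, and its list held 62945 regions against 33244 in KO at 0 h.

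H4K20me1 was called at fewer far than near sites in all 5 lists. In WT at 0 h it overlapped 256 far sites, 9.74% (8.63 to 10.9), against 16.5% (15.1 to 17.9) of near sites and 13.2% of all. In KO at 0 h it overlapped 352 far sites, 13.4% (12.1 to 14.8), against 21.4% (19.9 to 22.9) of near sites and 17.5% of all. At 1 h the shares were 9.85% of far and 14.3% of near sites in KO (12.1% of all), 7.08% of far and 11.5% of near sites in WT replicate 1 (9.36% of all), and 3.31% of far and 8.69% of near sites in WT replicate 2 (6.09% of all). Over the 2 WT replicates the difference was -4.90 points. Much of it sat in regions called with many targets. Without those called with all 8 targets it was -1.34 points, and without those called with the 7 targets other than LSD1n -2.26 points. Both definitions include H4K20me1 itself and so take out sites that carry it.

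Within 1 kb the gap was wider, and how much of it remained without those regions differed between lists. H4K20me1 in WT at 0 h was then found at 41.4% (39.5 to 43.3) of far sites and 57.4% (55.6 to 59.3) of near sites. Without the regions called with the 7 targets these were 37.6% of far sites and 53.0% of near sites, a difference of -15.4 points (-18.2 to -12.5). In KO at 0 h they were 52.1% (50.1 to 54.0) of far and 65.6% (63.8 to 67.3) of near sites. At 1 h they were 22.2% of far and 30.3% of near sites in KO, 33.2% of far and 46.7% of near sites in WT replicate 1, and 7.87% of far and 15.7% of near sites in WT replicate 2. Without the regions called with all 8 targets the difference within 1 kb was -12.0 points in WT at 0 h and -9.33 points in KO at 0 h. At 1 h it was then -2.96 points in KO, against -8.13 with all sites, -8.17 points in WT replicate 1, against -13.4, and -3.38 points in WT replicate 2, against -7.87. The overlap also went down along the distance from LSD1n. In KO at 0 h, H4K20me1 overlapped 14.8% of far sites at 5 to 50 kb, 13.2% at 50 to 500 kb and 9.38% beyond 500 kb. The 54 far sites at 1 to 5 kb had 18.5%, from 10 sites. The fall between 5 to 50 kb and beyond 500 kb was not confined to H4K20me1. Pol II of the 1 h library labelled WT went from 64.6% to 54.2%, and H3K4me1 in WT at 1 h from 28.5% to 17.7%. The LSD1 antibody in LSD1n KO and in LSD1n WT went up, to 18.75% and 15.97% beyond 500 kb. The median place in the list moved from 54.5% to 60.2%, and the part of rank was not tested. H4K20me1 coverage around the sites differed between the lists. In WT at 0 h it was 7.57% at far site centres and highest, 20.8%, at 1600 bp; in KO at 0 h it was 10.1% at the centre and 28.1% at 1600 bp. In WT replicate 1 at 1 h it was 5.33% at the centre and highest, 19.4%, at 1800 bp. In KO at 1 h and in WT replicate 2 at 1 h it was highest at the centre itself, at 7.84% and 2.55%.

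H3K36me3 was rare at far sites. In WT it overlapped 31 far sites at 1 h, 1.18% (0.803 to 1.67), against 4.34% (3.62 to 5.17) of near sites and 2.81% of all. At 0 h it overlapped 29 far sites in WT, 1.10%, against 3.85% of near sites and 2.52% of all. In KO it overlapped 11 far sites at 1 h (0.418%, against 2.71% of near sites and 1.6% of all) and 18 at 0 h (0.685%, against 3.81% of near sites and 2.3% of all). The difference at 1 h in WT was -3.17 points (-4.07 to -2.29). It was -0.0621 points without the regions called with all 8 targets and -0.657 points without those called with the 7 targets other than LSD1n, which include H3K36me3 by definition. The order within 1 kb depended on those regions. With all sites, H3K36me3 in WT at 1 h lay within 1 kb of 5.25% of far and 8.23% of near sites. Without the regions called with all 8 targets it lay within 1 kb of 5.15% of far and 2.45% of near sites, a difference of 2.70 points (1.63 to 3.79). The same difference was 1.24 points (0.293 to 2.18) in WT at 0 h, 0.849 points (0.209 to 1.503) in KO at 1 h and 0.137 points (-0.614 to 0.880) in KO at 0 h. Without the regions called with the 7 targets it was -0.0792 points (-0.976 to 0.819) in WT at 1 h. The definition with all 8 targets requires LSD1n and takes out near sites almost alone. Of the near sites, those that overlap LSD1n had H3K36me3 in 6.61% and those with LSD1n at a gap of up to 1 kb in 1.33%, close to the far sites. Around far sites the WT 1 h regions covered 0.875% of centres and 4.01% of positions 4.3 kb away, where coverage was highest.

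**Figure D3:**
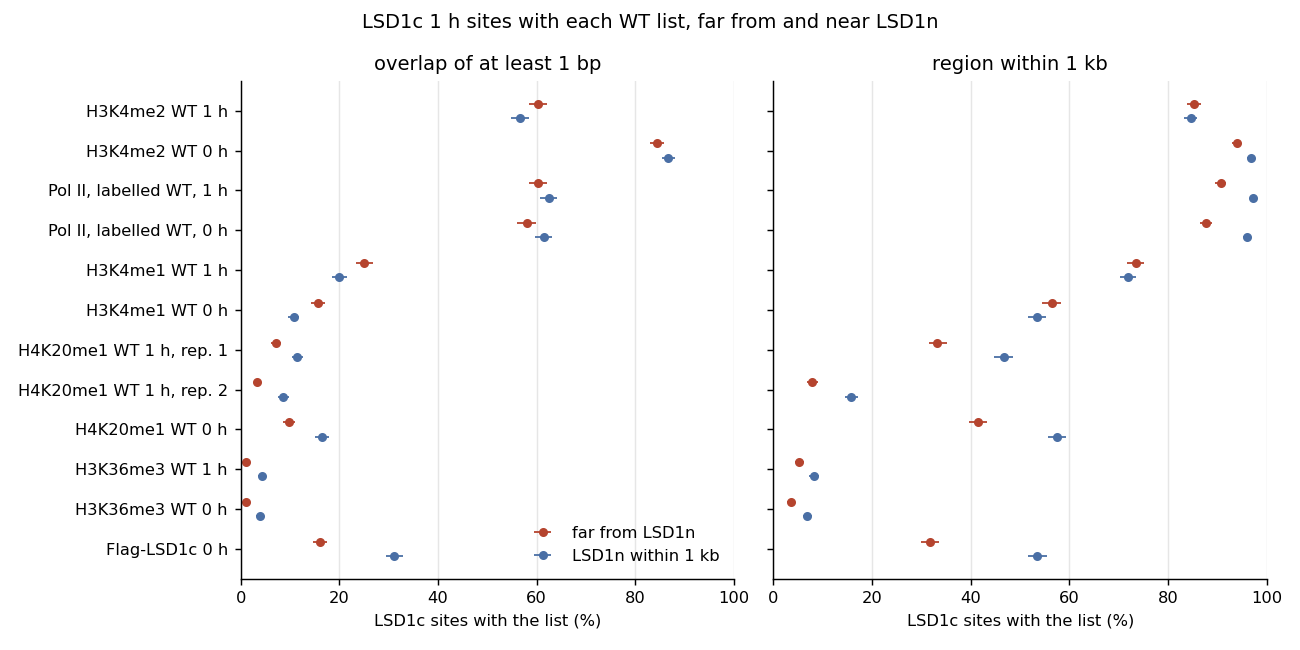
Share of LSD1c 1 h sites (x axis, %) with each WT list and with Flag-LSD1c at 0 h (rows), counted as an overlap of at least 1 bp (left) or a region within 1 kb (right), for far and near sites; bars are 95% exact intervals. H3K4me1 is higher at far sites by overlap (25.03% against 19.98% in WT at 1 h), and H4K20me1, H3K36me3 and Flag-LSD1c at 0 h are lower. Without the regions called with all 8 targets, H3K36me3 in WT at 1 h lies within 1 kb of 5.15% of far and 2.45% of near sites. That definition requires LSD1n and H3K36me3 peaks and takes out near sites almost alone. Without the regions called with the 7 targets other than LSD1n the difference is -0.0792 points (-0.976 to 0.819).

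Without LSD1n the H3K4me1 calls at far sites differed in opposite directions at the 2 times. At 1 h the KO list overlapped 28.1% of far sites and the WT list 25.03%, a difference of 3.04 points (1.11 to 4.95). At these sites 374 were overlapped in both, 364 in KO alone and 284 in WT alone. At 0 h the KO list overlapped 10.99% and the WT list 15.6%, a difference of -4.64 points (-6.04 to -3.17), with 155 sites in both, 134 in KO alone and 256 in WT alone. Near sites had differences of 2.81 points at 1 h and -2.07 points at 0 h. The lists themselves differed in the same directions, with 1.41 times as many regions in KO at 1 h and 0.894 times as many at 0 h. With lists of equal length, the widest regions of each, the difference at far sites was 0.0761 points at 1 h and -3.96 points at 0 h, and at near sites it was -1.03 points at 1 h and -1.57 points at 0 h. The title prefix is the same for these 4 libraries.

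H4K20me1 was called over more far sites in KO than in WT. At 0 h the difference was 3.65 points (2.23 to 5.01), from 126 sites overlapped in both, 226 in KO alone and 130 in WT alone, and it was 2.97 points with lists of equal length. Within 1 kb it was 10.7 points (8.87 to 12.3), with 52.1% of far sites in KO and 41.4% in WT. Near sites at 0 h had 4.88 points by overlap, 4.34 points with lists of equal length and 8.12 points within 1 kb. The 0 h list of KO held 36291 regions and that of WT 25429. Both 0 h libraries share a title prefix. At 1 h the KO list overlapped 9.85% of far sites, 2.78 points (1.43 to 4.07) above WT replicate 1 and 6.54 points (5.44 to 7.51) above WT replicate 2. With lists of equal length these were 4.07 points against replicate 1 and 1.10 points against replicate 2. Within 1 kb the result depended on the replicate: KO, at 22.2%, was 11.1 points below replicate 1 (33.2%) and 14.3 points above replicate 2 (7.87%). The list of replicate 1 held 28453 regions, that of replicate 2 2844 and that of KO 9022. Replicate 2 shares its title prefix with the KO library and replicate 1 does not. Near sites had 2.78 points against replicate 1 and 5.59 points against replicate 2 by overlap. With lists of equal length they had 6.66 points against replicate 1, and -2.10 points against replicate 2, from 6.59% in KO and 8.69% in WT.

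H3K36me3 was lower in KO at far sites, from small counts. At 1 h 5 far sites were overlapped in both, 6 in KO alone and 26 in WT alone, a difference of -0.761 points (-1.04 to -0.330). With lists of equal length it was -0.304 points at far sites and 1.25 points at near sites. The KO list held 3166 regions and the WT list 17465, a ratio of 0.181, and at far sites the ratio of shares was 0.355. At 0 h 10 far sites were overlapped in both, 8 in KO alone and 19 in WT alone, and the difference of -0.418 points had an interval that included 0 (-0.745 to 0.00373). It was 0.0761 points with lists of equal length. Within 1 kb the shares at 1 h were 1.79% of far sites in KO and 5.25% in WT. Their title prefix is the same, and KO had the shallower libraries, at 12572399 and 13147855 tags against 16785574 and 19055899.

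Pol II calls were mostly shared between genotypes, at far and near sites alike. Of the far sites overlapped in the 1 h library labelled WT, 89.7% were also overlapped in that labelled KO, against 90.1% of such near sites. At 0 h these shares were 86.8% for far and 90.3% for near sites. At 1 h 1421 far sites were overlapped in both libraries, 215 in that labelled KO alone and 163 in that labelled WT alone, a difference of 1.98 points (0.493 to 3.43) by the labels. In the first 50% of the list its sign was the opposite (-0.347 points). At 0 h 1324 were overlapped in both, 207 in that labelled KO alone and 201 in that labelled WT alone, a difference of 0.228 points (-1.31 to 1.77), and -0.418 points with lists of equal length. Near sites had 0.534 points at 1 h and 1.18 points at 0 h. Between the times, 235 far sites had Pol II at 1 h alone and 130 at 0 h alone in the libraries labelled KO (3.99 points, 2.56 to 5.36), and 279 and 220 in those labelled WT (2.24 points, 0.543 to 3.92). The 1 h libraries were the deeper ones, at 22336241 tags against 16651225 for the label KO and 21641320 against 14622895 for the label WT.

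**Figure D4:**
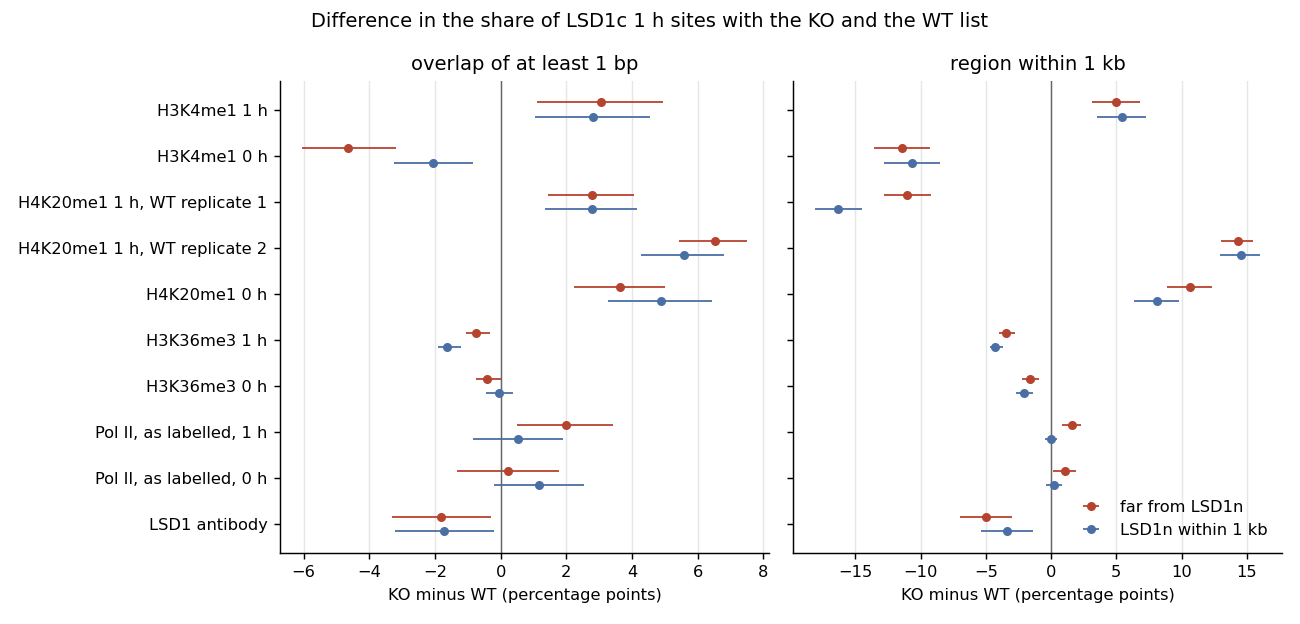
KO minus WT in the share of LSD1c 1 h sites with each list (x axis, percentage points), by overlap of at least 1 bp (left) or a region within 1 kb (right), for far and near sites; bars are 95% intervals of counting error. H3K4me1 is above 0 at 1 h and below 0 at 0 h, and H4K20me1 at 1 h changes sign between the 2 WT replicates within 1 kb. Pol II follows the sample labels.

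In LSD1n KO and in LSD1n WT neurons the LSD1 antibody had a site within 1 kb of most far sites. In these 2 lists it lay next to the LSD1c site more often than on it. The WT list is of 0 h and the KO list has no KCl time, while the LSD1c sites are of 1 h. In wild type neurons at 1 h the antibody overlapped 1116 far sites, of 1903 with one of its sites within 1 kb. In LSD1n KO neurons its sites overlapped 343 far sites, 13.0% (11.8 to 14.4), against 16.6% (15.2 to 18.0) of near sites and 14.9% of all. In LSD1n WT neurons they overlapped 391 far sites, 14.9% (13.5 to 16.3), against 18.3% (16.9 to 19.8) of near sites and 16.6% of all. Within 1 kb the KO list had a site at 1420 far sites, 54.0% (52.1 to 55.9), against 64.1% (62.3 to 65.9) of near sites and 59.2% of all. The WT list had one within 1 kb of 1551 far sites, 59.0% (57.1 to 60.9), against 67.5% (65.8 to 69.2) of near sites and 63.4% of all.

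KO and WT differed by a small margin in the same direction at far and near sites. By overlap 169 far sites were in both lists, 174 in KO alone, 222 in WT alone and 2064 in neither, a difference of -1.83 points (-3.32 to -0.306). It was -1.86 points with lists of equal length. At near sites it was -1.71 points (-3.21 to -0.191). Within 1 kb, 1130 far sites had both, 290 KO alone, 421 WT alone and 788 neither, a difference of -4.98 points (-6.95 to -2.97), and near sites had -3.38 points (-5.34 to -1.40). Of the far sites with the WT antibody within 1 kb, 72.9% also had the KO antibody. The KO library has another title prefix and no KCl time in its labels, and held 31532169 tags against 17993780. Genotype cannot be told apart from these.

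The first-listed far sites show these classes. The antibody list of each genotype overlapped the sites on chromosome 16 (93686882 to 93687082), at number 242 of the list, and on chromosome 7 (28338229 to 28338429 and 27980895 to 27981095), at numbers 289 and 410. The chromosome 16 site overlapped regions of 18 of the 24 lists compared and no Pol II list. In KO and not in WT it overlapped the sites at numbers 117, 124 and 130, which are 34627527 to 34627727 of chromosome 2, 121628945 to 121629145 of chromosome 9 and 34260286 to 34260486 of chromosome 14. The chromosome 9 site had a WT antibody site within 1 kb. In WT and not in KO it overlapped the sites at numbers 60, 155 and 160, which are 90173882 to 90174082 of chromosome 1, 77765202 to 77765402 of chromosome 9 and 74537799 to 74537999 of chromosome 11. The chromosome 1 site was also the first-listed far site outside the regions called with all 8 targets, and lay 71.6 kb from LSD1n. It overlapped 21 of the 24 lists and had the LSD1 antibody of wild type neurons at 1 h within 1 kb. Next in that order were sites on chromosome 6 (38383918 to 38384118) and chromosome 11 (97888285 to 97888485), at numbers 78 and 82, which overlapped 6 and 8 of the lists. Both overlapped H3K4me2 at 0 h and all 4 Pol II lists.

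Far sites with and without the LSD1 antibody had H3K4me1 shares with overlapping intervals. Their H3K36me3 shares stood apart between sites with the antibody in both genotypes and sites with it in neither. Within 1 kb, H3K4me1 in WT at 1 h was found at 71.5% (68.8 to 74.1) of far sites with the antibody in both genotypes, 74.1% (68.7 to 79.1) of those with KO alone, 76.2% (71.9 to 80.2) of those with WT alone and 74.5% (71.3 to 77.5) of those with neither. H4K20me1 in WT at 0 h was within 1 kb of 39.3%, 46.6%, 44.4% and 41.0% of the same 4 classes. H3K36me3 in WT at 1 h was within 1 kb of 2.48% (1.65 to 3.56) of far sites with both. For those with neither the share was 9.52% (7.56 to 11.8). It was 4.48% (2.41 to 7.54) with KO alone and 5.23% (3.30 to 7.81) with WT alone. These intervals overlapped that of both, and that of WT alone also overlapped that of neither. At near sites the H3K36me3 share was 9.27% with both and 7.75% with neither. Pol II of the 1 h library labelled WT was less common where the antibody was in neither list, at 82.9% (80.1 to 85.4) of those far sites, against 94.5% of those with both, 94.1% of those with KO alone and 92.4% of those with WT alone. Near sites with neither had Pol II in 97.4%.

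In wild type neurons the antibody met the far sites more closely at 1 h. Its 1 h sites overlapped 1116 far sites, 42.4% (40.6 to 44.4), against 44.7% (42.8 to 46.5) of near sites and 43.6% of all. Its 0 h sites overlapped 460 far sites, 17.5% (16.1 to 19.004), against 21.8% (20.3 to 23.3) of near sites and 19.7% of all. At 906 far sites the overlap was called at 1 h alone, at 250 at 0 h alone and at 210 at both times. Within 1 kb the times differed much less. The 1 h list had a site within 1 kb of 72.4% of far sites, against 81.5% of near sites and 77.1% of all. The 0 h list had one within 1 kb of 68.7% of far sites, against 78.1% of near sites and 73.6% of all. Among far sites with an antibody site centred within 1 kb, the median distance between centres was 156 bp in wild type at 1 h and 331 bp in wild type at 0 h. It was 338 bp in LSD1n KO and 341 bp in LSD1n WT at 0 h. Centres lay within 100 bp of each other at 25.9% of far sites in wild type at 1 h and at 6.43% in KO, 7.34% in WT and 7.72% in wild type at 0 h. Near sites had medians of 172, 340, 355 and 351 bp in wild type at 1 h, wild type at 0 h, KO and WT. The wild type libraries of both times share a title prefix.

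**Figure D5:**
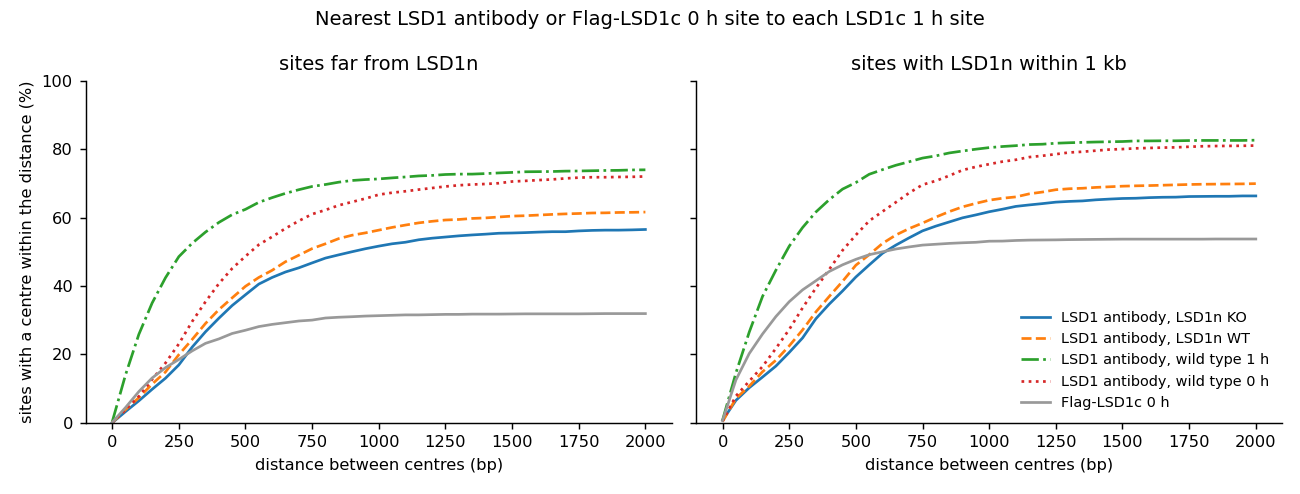
Share of LSD1c 1 h sites (y axis, %) whose nearest site of another LSD1 list has its centre within a given distance (x axis, bp), for far sites (left) and near sites (right). The wild type 1 h antibody list rises first, with 25.9% of far sites within 100 bp, and the Flag-LSD1c 0 h list levels off lower at far than at near sites (31.3% and 53.1% within 1 kb).

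Over the 4 LSD1 antibody lists, 848 far sites (32.3%, 30.5 to 34.1) had a site of every list within 1 kb and 232 (8.82%, 7.77 to 9.97) had none. Near sites had every list in 42.8% (40.9 to 44.6) and none in 2.96% (2.36 to 3.65). By overlap, 52 far sites (1.98%) were met by all 4 lists and 1075 (40.9%) by none. Near sites were met by all 4 in 5.48% and by none in 38.2%. LSD1c and LSD1n share most of their protein sequence, and which part of it the antibody binds is not given in the sources used here.

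Far sites were less often called for LSD1c at 0 h than near sites. Flag-LSD1c at 0 h overlapped 424 far sites, 16.1% (14.7 to 17.6), against 31.1% (29.4 to 32.8) of near sites and 23.9% of all. Within 1 kb it was called at 832 far sites, 31.6% (29.9 to 33.5), and 53.5% (51.6 to 55.4) of near sites. The rest, 1797 far sites, stood later in the list (median place 58.5%, against 48.8% with LSD1c at 0 h). H3K4me1 in WT at 1 h overlapped 28.8% (26.7 to 31.0) of far sites without LSD1c at 0 h and 16.8% (14.3 to 19.5) of far sites with it. In KO at 1 h these were 32.0% (29.8 to 34.2) without and 19.6% (17.0 to 22.5) with it. H3K4me2 in WT at 1 h was at 60.3% of far sites without and 60.2% of far sites with LSD1c at 0 h, and Pol II of the 1 h library labelled WT at 58.9% (56.6 to 61.2) without and 63.1% (59.7 to 66.4) with it. At near sites H3K4me2 was at 58.6% without and 54.9% with LSD1c at 0 h, and Pol II at 62.5% without and 62.4% with it. The LSD1c library at 0 h was the deeper, at 27416097 tags against 19610076, and both share a title prefix.

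No mark and no Pol II list had a region within 1 kb of 23 far sites (0.875%, 0.555 to 1.31) and 8 near sites (0.285%, 0.123 to 0.561). These far sites stood late in the list, at a median place of 70.04%. The first-listed of them, at numbers 3147, 3185 and 3258, were 84611443 to 84611643 of chromosome 11, 9973886 to 9974086 of chromosome 12 and 28000377 to 28000577 of chromosome 14. None of the 24 lists compared had a peak within 1 kb of these 3.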

How the data were processed

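Chromatin immunoprecipitation with sequencing gave 27 deposited lists of peaks, out of 41 samples; the other 14 samples (10 GRO-seq, 4 RNA-seq) were not analysed here. Bowtie, HOMER and build mm9 are named in the submitters' processing notes, without versions. Per the file headers, the authors called Pol II, LSD1 and Flag sites at a fixed size of 200 bp with 4-fold more tags than the surrounding 10 kb, and histone regions by stitching peaks of 500 bp, at a false discovery rate of 0.001. The deposited values are positions (first and last base of a peak on mm9) and a score, which the deposited lists set to 1 throughout, so peak height was not used and the order of entries was taken as rank.

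Groups follow the sample labels. Gaps, overlaps (at least 1 bp) and exact intervals were computed with Python 3.11.15, numpy 2.4.6, pandas 2.3.3 and scipy 1.17.1, and figures with matplotlib 3.10.9. Intervals of a difference between far and near sites combine both exact limits; intervals between lists at the same sites use the discordant sites. With 1 library per group no test was run, and the 2 H4K20me1 WT lists at 1 h were averaged only for the overall difference. Gap and overlap code was tested on 3 simulated lists of 400 sites, with 0 mismatches. The members, lists and rules were chosen with earlier results of these data known. Named sites are the first 3 in list order of each class, and the 3 just inside and outside 1 kb. No mm9 genome or gene annotation was used here, so the planned nearest genes and sequences are not given. Alternatives covered the distance to LSD1n, the overlap rule, list rank and length, regions called with many targets, and single replicates; regions called with 7 targets, and regions called with all 8 targets together with the 1 kb rule, were added after the data were seen. Total tags ran from 6990017 to 34859557 per library; tag counts per site were not used.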

Additional observations from a re-analysis of the deposited data

Results flagged for a closer look

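H3K4me1 at far sites differed between KO and WT in opposite directions at the 2 times: by 3.04 percentage points at 1 h and by -4.64 points at 0 h, each with an interval off 0. The difference between these values was not tested, with 1 library per group. With lists of equal length the value was 0.0761 points at 1 h and -3.96 points at 0 h.

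H3K4me2 in WT differed between far and near sites in opposite directions at the 2 times: by 3.66 points at 1 h and by -2.27 points at 0 h, again with intervals off 0. This difference was not tested either. Within 1 kb the values were 0.662 points at 1 h and -2.92 points at 0 h. Among the earlier entries of the list (1152 far sites) the order at 0 h was that of 1 h, with 88.6% of far and 87.4% of near sites. Without the regions called with all 8 targets the 0 h value by overlap was -1.46 points, with an interval that included 0 (-3.45 to 0.538). Those regions require an LSD1n peak and take out near sites almost alone. Without the regions called with the 7 targets other than LSD1n it was -2.68 points (-4.77 to -0.590). Both definitions include H3K4me2 itself.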

How the results depend on the processing

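Of 108 alternatives over 14 differences, 73 left the value within its counting interval or its replicate spread. The sign turned under 5. In 2 of these the value as reported had an interval off 0: Pol II at 1 h, KO minus WT, in the first 50% of the list, and H3K36me3 in WT at 1 h, far minus near, without regions called with all 8 targets and within 1 kb. In the other 3 the interval held 0: Pol II in WT at 1 h, far minus near, in the first 50% of the list, and KO minus WT at 0 h for H3K36me3 and Pol II (-0.418) with lists of equal length. The number of far sites stayed within 1.5 times 2629 under 6 of 7 alternatives, with 3833 when LSD1n only had not to overlap. The far sites of the first 50% of the list numbered 1152. Counting regions within 1 kb, far minus near in WT at 1 h was 0.662 points for H3K4me2, 1.55 for H3K4me1, -6.62 for Pol II and -10.6 for H4K20me1. In the first 50% of the list it was 1.10 for H3K4me1, 1.80 for Pol II, -6.47 for H4K20me1 and -5.25 for H3K36me3. Without regions called with all 8 targets it was 7.61 for H3K4me1, -1.34 for H4K20me1 and -0.0621 for H3K36me3, and with near sites weighted to the ranks of far sites -3.42 for H4K20me1 and -1.67 for H3K36me3. Without regions called with 7 targets it was -2.26 for H4K20me1 and -0.657 for H3K36me3. Without these regions and within 1 kb it was 0.771 for H3K4me2, 2.03 for H3K4me1, -6.97 for Pol II, -8.20 for H4K20me1 and -0.0792 for H3K36me3. Without regions called with all 8 targets and within 1 kb it was -6.53 for Pol II, -5.78 for H4K20me1 and 2.70 for H3K36me3. The definition with all 8 targets requires an LSD1n peak and takes out near sites almost alone. KO minus WT at far sites within 1 kb was 4.98 points for H3K4me1 at 1 h, -11.4 at 0 h, -3.46 for H3K36me3 at 1 h, -1.64 at 0 h, 1.62 for H4K20me1 at 1 h, 10.7 at 0 h and -4.98 for the LSD1 antibody. With lists of equal length it was 0.0761 for H3K4me1 at 1 h, -0.304 for H3K36me3 at 1 h and 0.0761 at 0 h. In the first 50% of the list it was -2.78 for H3K4me1 at 0 h and, for Pol II at 1 h, -0.347 against 1.98 in the whole list. Leaving out 1 WT replicate of H4K20me1 at 1 h gave -5.38 to -4.43 for far minus near and 2.78 to 6.54 for KO minus WT. The cause of these shifts was not tested. No paired analysis was possible because the groups compared hold 1 library each and share no pair of replicate numbers. Peaks without heights limit what list rank can show, and a site with no call may hold signal below the threshold.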
